A study of Homo sapiens with 16 samples.

Results

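Glycolysis and the hypoxia response were followed in SH-SY5Y cells, a human neuroblastoma line, through 36 genes, found by the Ensembl identifiers that map to their symbols among the 26410 genes of both deposited tables. RNA sequencing gave 16 libraries in 4 groups of 4, from 4 single-cell clones, KO11 and KO28 with the label TRPM2 KO, Scr13 and Scr16 with a scrambled guide RNA, with 2 replicates of each clone, untreated or after 24 h with doxorubicin, a DNA-damaging anthracycline. The sample labels give 0.3 µM of the drug, and the text for the series gives 3 µM. Headers of the deposited columns mark untreated libraries as 0h and treated ones as 24h, while the study text gives 24 h for both. If the headers hold, the drug and the time in culture cannot be told apart. Both genotypes carried a donor vector for green fluorescent protein and puromycin resistance. The edit in the clones labelled KO removes the start of the coding sequence and shifts the reading frame of TRPM2, a calcium-permeable channel. Each genotype was 2 clones, so the libraries of a genotype were not independent of each other, and the p-values measure the spread between libraries. Libraries held from 10481177 to 25086085 reads on genes, with a median of 16037366.5, and levels are normalized CPM, counts per library total after the scaling of the authors.

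Glycolysis converts glucose to pyruvate in the cytosol, first spending and then regaining ATP, and lactate dehydrogenase turns pyruvate into lactate. Hypoxia inducible factors (HIF) are pairs of an oxygen-regulated alpha subunit, encoded by HIF1A or EPAS1, with a constant beta subunit. Prolyl hydroxylases mark the alpha subunit for destruction when oxygen is present, so that its mRNA level alone does not give the amount of the protein. HIF binds a short core sequence in the promoters and enhancers of most genes of glycolysis and of targets such as VEGFA and CA9, and tumor cells are known for using both programs also in air.

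TRPM2 itself was read first, as a check of the labels. Its untreated level was 1.93 and 2.23 normalized CPM in KO11, 1.41 and 2.19 in KO28, 0.118 and 0.115 in Scr13 and 0 and 0 in Scr16. With doxorubicin it was 1.22 and 1.83 normalized CPM in KO11, 1.37 and 0.658 in KO28, 0.0594 and 0.0631 in Scr13 and 1.33 and 0.390 in Scr16. All 4 untreated libraries labelled KO were thus above all 4 untreated Scr libraries, from at most 37 reads per library, which goes against the label as read from whole-gene counts. These counts include reads outside the edited start and so do not test the edit, and the clones are called by their labels. Markers of the line were present: STMN2, a neuronal cytoskeleton gene, was at 1480 ± 85.9 normalized CPM (SD, n = 4), and PHOX2A, a sympathetic lineage factor, at 679.9 ± 79.8 in untreated Scr libraries. TH, which encodes tyrosine hydroxylase, was near 0 in all libraries, with a highest value of 1.13. Of the 12 p53 target genes listed as a check of the treatment label, all 12 were higher with doxorubicin in the Scr clones and all 12 in the KO clones (7.1% and 11.3% of all genes). FAS, a death receptor, reached 1 normalized CPM in 0 of 4 untreated Scr and 3 of 4 untreated KO libraries and passed the filter through the treated group, so its calls give no support to these counts, and the other 11 were higher in each genotype. The list also moved with genotype: 6 of 11 tested were higher in untreated and 11 of 12 in treated libraries labelled KO (2.3% and 4.52% of all genes), and 0 were lower.

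Of the 36 genes, 34 passed the filter on low values, set at 1 normalized CPM or more in no fewer than 4 compared libraries. Both that failed sat near 0 in all 16 libraries: SLC2A3, a neuronal glucose transporter, did not exceed 0.276 normalized CPM, and CA9, a carbonic anhydrase that is a standard mark of HIF activity, reached 0.398 normalized CPM, or 7 reads. Untreated, CA9 was 0 and 0 normalized CPM in KO11, 0 and 0 in KO28, 0.276 and 0.0576 in Scr13 and 0 and 0.398 in Scr16. With doxorubicin it was 0 and 0 normalized CPM in KO11, 0 and 0.179 in KO28, 0 and 0 in Scr13 and 0 and 0 in Scr16. CA9 was not detectable at this depth in 12 of 16 libraries, where 0 reads allow up to 3, or 0.165 to 0.285 normalized CPM in those 12, for counting error only. Per kilobase of exon, GAPDH had the highest mean level (810 normalized CPM per kilobase), followed by ENO1 (211), TPI1 (189), ALDOA (188) and PKM (143), which encode glyceraldehyde phosphate dehydrogenase, enolase, triosephosphate isomerase, aldolase and pyruvate kinase. The length here, as for all shares per kilobase, is the union of all annotated exons and can exceed that of the mRNA. Without division by length, PKM (1228 normalized CPM) was above ENO1 (1112). HIF1A (66.7 normalized CPM per kilobase) was above EPAS1 (38.0). Strand use in counting is not given in the sources used here, so where a gene is annotated on the opposite strand of a member, reads of the overlap cannot be told apart. Such members include SLC2A1, ENO1, SLC16A1, HIF1A, EGLN3 and P4HA2, each with a named antisense transcript, and SLC16A3 (with CSNK1D), PFKM (SENP1), TPI1 (SPSB2), PGK1 (PGAM4), CA9 (ARHGEF39) and ANKRD37 (UFSP2), while ALDOA, ALDOC, GAPDH, LDHB, PDK1, PFKFB3, VEGFA and others also overlap an opposite-strand gene. GAPDH has 62 annotated pseudogenes and LDHA 6, which could share reads with them.

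The promoter windows of 4 members with different results are shown. PFKFB3 and ALDOC were higher in untreated libraries labelled KO, SLC2A1 was lower in the libraries labelled KO after doxorubicin, and LDHA is a textbook HIF target whose window held 6 HIF cores, the highest number found and shared with a window of HK2. Windows run from 250 bases before to 50 after a RefSeq start (GRCh38.p14), 5′ to 3′ on the gene's strand, and capitals mark ACGTG and GCGTG on either strand (CACGT and CACGC when read on the other). A CACGTG holds ACGTG on both strands and was counted on each.
PFKFB3 (chr10:6202682-6202981, plus strand): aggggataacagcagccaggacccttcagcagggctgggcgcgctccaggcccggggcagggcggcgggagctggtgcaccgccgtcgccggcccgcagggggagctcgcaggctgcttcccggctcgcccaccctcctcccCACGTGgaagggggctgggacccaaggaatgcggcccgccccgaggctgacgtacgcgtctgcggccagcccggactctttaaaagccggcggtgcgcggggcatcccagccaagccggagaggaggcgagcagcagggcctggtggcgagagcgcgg
ALDOC (chr17:28576846-28577145, minus strand): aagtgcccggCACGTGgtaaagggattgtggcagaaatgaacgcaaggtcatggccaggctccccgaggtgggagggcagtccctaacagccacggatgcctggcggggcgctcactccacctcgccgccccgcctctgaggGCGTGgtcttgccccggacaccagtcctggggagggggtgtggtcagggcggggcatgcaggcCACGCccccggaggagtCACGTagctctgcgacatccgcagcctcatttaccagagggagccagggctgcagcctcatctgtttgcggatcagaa
SLC2A1 (chr1:42958819-42959118, minus strand): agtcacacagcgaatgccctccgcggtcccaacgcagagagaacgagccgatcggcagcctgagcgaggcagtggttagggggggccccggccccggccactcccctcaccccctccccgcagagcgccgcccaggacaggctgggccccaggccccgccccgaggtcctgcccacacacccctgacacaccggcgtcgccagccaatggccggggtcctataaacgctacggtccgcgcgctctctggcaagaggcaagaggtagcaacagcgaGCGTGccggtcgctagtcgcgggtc
LDHA (chr11:18394313-18394612, plus strand): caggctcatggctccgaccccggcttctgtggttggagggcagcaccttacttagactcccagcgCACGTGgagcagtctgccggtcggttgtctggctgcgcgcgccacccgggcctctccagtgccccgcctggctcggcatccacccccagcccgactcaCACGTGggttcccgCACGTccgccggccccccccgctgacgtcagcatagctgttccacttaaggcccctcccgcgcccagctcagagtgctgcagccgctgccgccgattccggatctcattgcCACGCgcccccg
The window of PFKFB3, which is the second of 2 for that gene, held 1 CACGTG, 108 bases before the start. ALDOC held 5 cores, among them a CACGTG that begins 240 bases before the start. SLC2A1 held 1 GCGTG, after the start. Windows were found for 32 of the 36 members, 59 in all, and 66.1% of them held at least 1 core against 48.4% of all 35116 windows. The latter came from 27305 genes. A gene can have several windows, some of which overlap, and each was counted, so these are shares of windows and not of genes. VEGFA and NDRG1 were among the members without a window. ACGTG was in 39.0% of the members' windows and 21.4% of all, and GCGTG in 39.0% and 36.5%. The window of PGK1 held 4 cores and that of P4HA2 held 0. A match is a description of letters and not a binding site.

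Without treatment, 6 members were higher and 1 lower in the libraries labelled KO than in Scr, and 28 of 34 had a difference above 0. The higher genes were PFKFB3, ALDOA, ALDOC, PKM, EPAS1 and VEGFA, and the lower was SLC16A3. The test was limma on log2(normalized CPM + 1) with Benjamini-Hochberg adjustment over 14364 genes, and differences are on that scale. Of all genes tested, 2.3% were higher and 2.54% lower. The median difference was 0.11 over the members and -0.0073 over all genes. Groups did not overlap for 11 members (9.29% of all genes), where the two-sided exact permutation test of 4 against 4 reaches its smallest possible p of 0.0286. SLC16A3 is 1 of the 11, passed the filter through the Scr group, and gives no support to that count. With clone KO28, Scr13 or Scr16 left out, 3, 2 and 3 members passed (3.84%, 2.38% and 2.34% of all genes), and PFKFB3 and EPAS1 passed with any clone left out, as did SLC16A3 where it passed the filter. Without the filter on low values 4 members passed, and with 1 library left out 4 to 8, the 4 without untreated KO28 replicate 1. Over all genes 508 to 678 passed with 1 library left out, against 330 higher and 365 lower with all libraries. With reads summed per clone, 2 clones against 2, ALDOA, PKM and VEGFA did not pass, and SLC2A1 did.

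PFKFB3 (ENSG00000170525, chr10:6144934-6254644, plus strand, GRCh38 with GENCODE 29 as for all gene positions here) encodes a kinase that makes the fructose bisphosphate that is the strongest activator of phosphofructokinase. Its untreated level was 96.3 and 92.9 normalized CPM in KO11, 83.0 and 89.3 in KO28, 46.6 and 50.8 in Scr13 and 54.1 and 45.3 in Scr16. All libraries labelled KO lay above all Scr libraries, with a difference of 0.87 ± 0.088 (SE, adjusted p = 1.83e-06). With doxorubicin it was 96.4 and 81.9 normalized CPM in KO11, 78.0 and 84.2 in KO28, 64.4 and 80.2 in Scr13 and 61.5 and 60.0 in Scr16. The groups then overlapped through Scr13 and KO28, and the difference was 0.36 ± 0.100 (SE, adjusted p = 0.026). That second call was lost when any of 5 libraries was left out, KO11 replicate 1, KO28 replicate 2, Scr13 replicate 1 or either Scr16 library. PFKFB4, a second kinase of this family, did not pass the test between genotypes, with differences of 0.023 (adjusted p = 0.972) untreated and 0.29 (adjusted p = 0.241) with doxorubicin.

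Of the glucose transporters, 1 of 2 could be tested. SLC2A1 (ENSG00000117394, chr1:42925375-42959176, minus strand), the general glucose transporter, was untreated at 139 and 121 normalized CPM in KO11, 124 and 126 in KO28, 179 and 138 in Scr13 and 137 and 193 in Scr16. These groups overlapped by 1 library, KO11 replicate 1, and the difference of -0.33 ± 0.098 (SE, adjusted p = 0.0642) did not pass. It passed with DESeq2, with reads summed per clone, and without KO11 replicate 1, Scr13 replicate 2 or Scr16 replicate 1. With doxorubicin its level was 116 and 105 normalized CPM in KO11, 103 and 125 in KO28, 158 and 155 in Scr13 and 161 and 185 in Scr16. Every library labelled KO was then below every Scr library, with a difference of -0.55 ± 0.084 (SE, adjusted p = 0.000117). SLC2A1 did not pass within either genotype when doxorubicin was compared with no treatment, at 0.037 (adjusted p = 0.869) in Scr and -0.18 (adjusted p = 0.116) in KO clones, where it passed without KO28 doxorubicin replicate 2.

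Among the enzymes of the preparatory phase of glycolysis, both aldolases were higher in untreated libraries labelled KO. ALDOC (ENSG00000109107, chr17:28573115-28577264, minus strand), the brain isozyme, was untreated at 52.5 and 46.7 normalized CPM in KO11, 57.4 and 49.5 in KO28, 39.4 and 26.0 in Scr13 and 41.7 and 35.2 in Scr16. No Scr library reached the lowest library labelled KO, and the difference was 0.54 ± 0.13 (SE, adjusted p = 0.0125), a call lost without KO28 replicate 1 or without Scr13 replicate 2. With doxorubicin it was 57.5 and 57.4 normalized CPM in KO11, 56.5 and 56.7 in KO28, 63.4 and 42.1 in Scr13 and 67.1 and 51.4 in Scr16, and the 4 libraries labelled KO lay inside the range of Scr, with a difference of 0.048 (adjusted p = 0.877). ALDOA, the ubiquitous isozyme, had a difference of 0.32 ± 0.069 (SE, adjusted p = 0.00681) untreated and 0.017 (adjusted p = 0.935) with doxorubicin. HK1 and HK2, which trap glucose as its phosphate, GPI, TPI1 and the 3 phosphofructokinase genes PFKL, PFKM and PFKP did not pass in untreated libraries, although the groups did not overlap for GPI, at 0.15 (adjusted p = 0.23). With doxorubicin HK2 was lower in the libraries labelled KO by 0.28 (adjusted p = 0.0259) and PFKP by 0.34 (adjusted p = 0.0102) on the log2 scale. The HK2 call was lost when any library but Scr13 replicate 2 or Scr16 replicate 1 was left out, and that of PFKP without KO11 replicate 1.

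In the payoff phase, PKM was the 1 gene of 6 that passed in untreated libraries, at 0.25 ± 0.065 (SE, adjusted p = 0.023), and 0 of 6 passed with doxorubicin, where differences ran from -0.057 (ENO1) to 0.16 (PKM). The PKM call was lost when either KO28 library, either Scr13 library or Scr16 replicate 1 was left out. GAPDH, ENO1 and PGAM1 did not overlap between untreated groups and were higher in the libraries labelled KO, with differences that did not pass, 0.20 (adjusted p = 0.161), 0.11 (adjusted p = 0.463) and 0.12 (adjusted p = 0.466). PGK1 (ENSG00000102144, chrX:77910739-78129296, plus strand), phosphoglycerate kinase, had untreated levels of 410.2 and 384 normalized CPM in KO11, 336 and 356 in KO28, 394 and 319 in Scr13 and 393 and 372 in Scr16. These groups overlapped, with a difference of 0.0091 (adjusted p = 0.981) and a 95% interval of -0.15 to 0.17. With doxorubicin PGK1 was 395 and 464 normalized CPM in KO11, 412 and 446 in KO28, 472 and 402 in Scr13 and 443 and 450.1 in Scr16, and the difference was -0.042 (adjusted p = 0.828).

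Pyruvate can be reduced to lactate and exported or enter mitochondria, where pyruvate dehydrogenase kinases such as PDK1 hold it back. LDHA (ENSG00000134333, chr11:18394388-18408425, plus strand), which favors lactate, was untreated at 719 and 676 normalized CPM in KO11, 768 and 643 in KO28, 619 and 539 in Scr13 and 658 and 584 in Scr16. The highest Scr library exceeded the lowest library labelled KO, and the difference was 0.23 ± 0.074 (SE, adjusted p = 0.1), which passed with DESeq2 and without KO28 replicate 2. With doxorubicin LDHA was 587 and 638 normalized CPM in KO11, 595 and 603 in KO28, 625 and 592 in Scr13 and 662 and 621 in Scr16, the groups overlapped, and the difference was -0.044 (adjusted p = 0.8). SLC16A3 (ENSG00000141526, chr17:82228397-82261129, plus strand), the lactate exporter usually induced by HIF, was scarce. Its untreated level was 1.27 and 0.181 normalized CPM in KO11, 0.134 and 0.511 in KO28, 2.52 and 2.07 in Scr13 and 2.64 and 4.26 in Scr16. Every library labelled KO was below every Scr library, with a difference of -1.37 ± 0.29 (SE, adjusted p = 0.00557) that rests on 2 to 23 reads per library labelled KO. SLC16A3 passed the filter through the Scr group, where it is high, so this call, 1 of the 7, gives no support to a count of members. With doxorubicin SLC16A3 was 5.31 and 3.15 normalized CPM in KO11, 3.01 and 2.63 in KO28, 7.31 and 4.10 in Scr13 and 5.32 and 2.86 in Scr16, and the overlapping groups differed by -0.36 (adjusted p = 0.518). PDK1 (ENSG00000152256, chr2:172555373-172608669, plus strand) was 72.7 and 73.2 normalized CPM in KO11, 72.9 and 61.5 in KO28, 62.7 and 44.5 in Scr13 and 70.0 and 55.5 in Scr16 without treatment, a difference of 0.28 (adjusted p = 0.231) between overlapping groups. SLC16A1, the more abundant lactate carrier, LDHB and PDK3 did not pass between genotypes.

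Of the 4 oxygen sensing genes, EPAS1 was the one that differed between genotypes. EPAS1 (ENSG00000116016, chr2:46293667-46386703, plus strand) was untreated at 318 and 308 normalized CPM in KO11, 339 and 324 in KO28, 201 and 264 in Scr13 and 245 and 232 in Scr16. With doxorubicin it was 371 and 323 normalized CPM in KO11, 336 and 321 in KO28, 208 and 244 in Scr13 and 173 and 231 in Scr16. All libraries labelled KO lay above all Scr libraries of the same treatment, with differences of 0.46 ± 0.077 (SE, adjusted p = 0.000649) untreated and 0.67 ± 0.091 (SE, adjusted p = 2.85e-05) with doxorubicin. HIF1A (ENSG00000100644, chr14:61695513-61748259, plus strand) was untreated at 321 and 304 normalized CPM in KO11, 323 and 283 in KO28, 327 and 301 in Scr13 and 336 and 302 in Scr16. These groups overlapped throughout, and the difference was -0.041 (adjusted p = 0.861) with a 95% interval of -0.18 to 0.10. With doxorubicin HIF1A was 357 and 339 normalized CPM in KO11, 349 and 363 in KO28, 347 and 421 in Scr13 and 448 and 377 in Scr16, overlapping again, with a difference of -0.17 (adjusted p = 0.224). Per kilobase of exon EPAS1 made up 30.2% to 38.2% of the sum of both genes in untreated Scr libraries and 41.1% to 44.6% in untreated libraries labelled KO. EGLN1, the main prolyl hydroxylase of HIF, and EGLN3, its inducible relative, did not pass, with differences between 0.066 and 0.17.

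Among the 7 hypoxia targets VEGFA (ENSG00000112715, chr6:43770184-43786487, plus strand), the main growth factor for blood vessels, was higher in the libraries labelled KO in both treatments. Its untreated level was 149 and 163 normalized CPM in KO11, 164 and 172 in KO28, 138 and 125 in Scr13 and 129 and 135 in Scr16. With doxorubicin it was 252 and 234 normalized CPM in KO11, 239.8 and 244 in KO28, 198 and 209 in Scr13 and 176 and 188 in Scr16. Groups did not overlap in either treatment, and the differences were 0.30 ± 0.071 (SE, adjusted p = 0.0156) and 0.33 ± 0.073 (SE, adjusted p = 0.00433). The untreated call was lost without KO28 replicate 1 or without Scr13 replicate 2. ANKRD37, NDRG1, ADM, P4HA1 and P4HA2 did not pass between genotypes. P4HA2, a collagen prolyl hydroxylase, did not overlap with doxorubicin and had a difference of 0.32 (adjusted p = 0.118).

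After doxorubicin, 3 members were higher (PFKFB3, EPAS1 and VEGFA) and 3 lower (SLC2A1, HK2 and PFKP) in the libraries labelled KO. Over all 14572 genes tested, 4.52% were higher and 4.17% lower. The median over the members was -0.013, against 0.014 over all genes, with 17 members above and 17 below 0. Groups did not overlap for 6 members (13.2% of all genes). With clone KO11 or KO28 left out, 2 and 3 members passed (3.63% and 4.09% of all genes), and EPAS1 and SLC2A1 passed with any clone left out. With clone Scr16 left out 4 passed (7.54% of all genes), without HK2, PFKFB3 and VEGFA and with NDRG1, and with Scr13 left out 6 passed (8.49%), without PFKP and with PFKL. With 1 library left out 3 to 6 passed, the 3 without KO11 doxorubicin replicate 1. Over all genes 814 to 1314 then passed, against 659 higher and 607 lower with all libraries. The 3 genes that were higher with doxorubicin were also among the 6 higher without it.

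**Figure D1:**
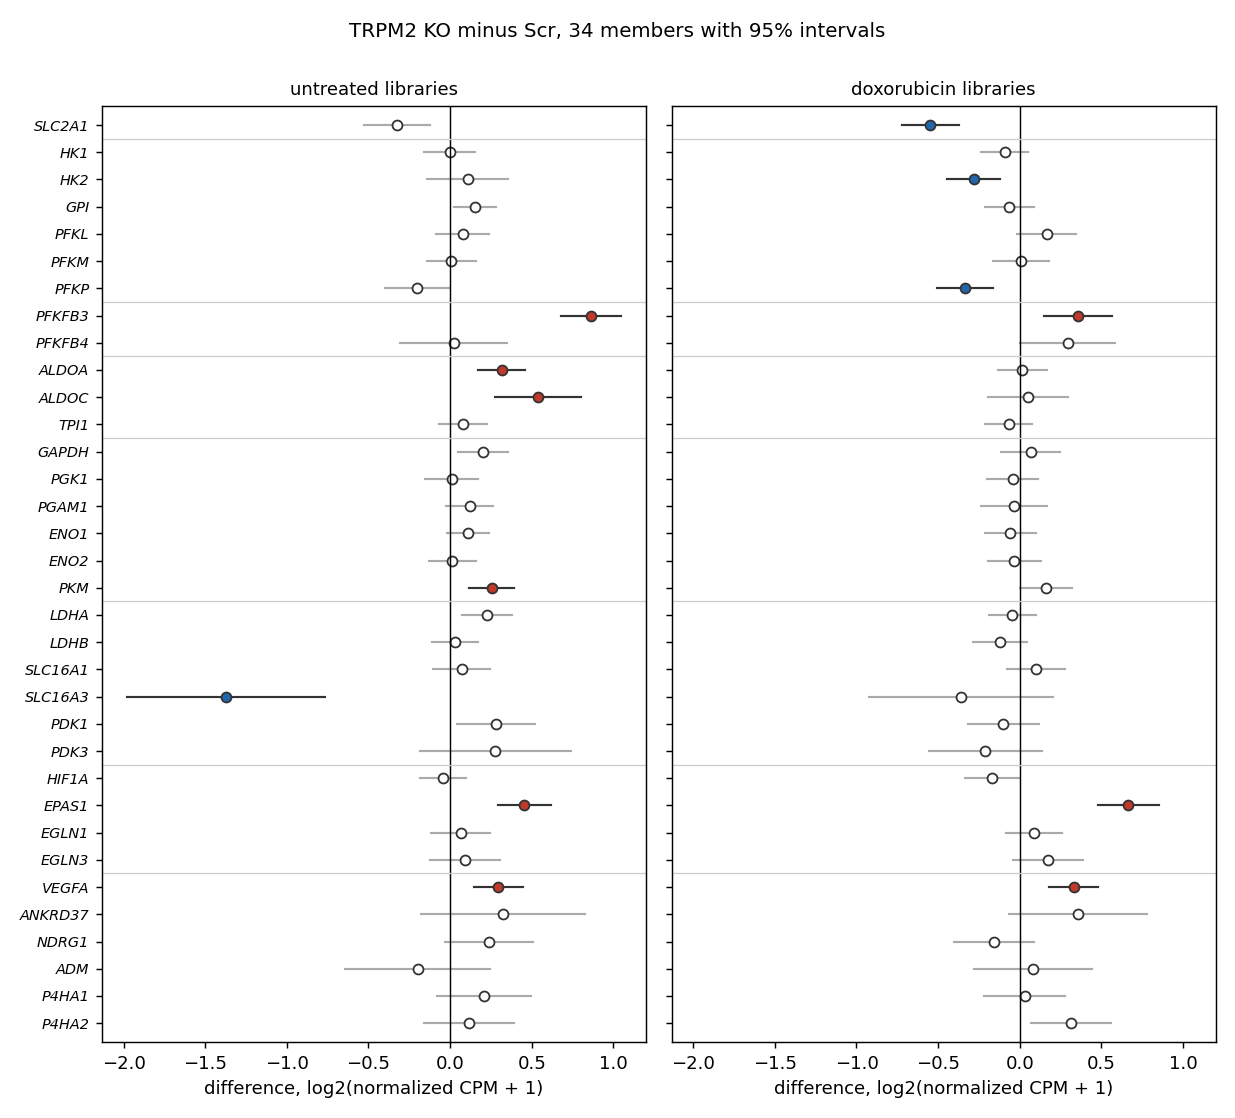
Difference between libraries labelled TRPM2 KO and Scr for the 34 members tested, as log2(normalized CPM + 1), in untreated (left) and doxorubicin (right) libraries, 4 against 4, grouped by role with grey lines. Points are limma estimates with 95% intervals, filled red (higher) or blue (lower) where the adjusted p is under 0.05: 6 red and 1 blue on the left, 3 and 3 on the right.

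No member passed between clones of 1 genotype. Between KO28 and KO11, 0 of 34 passed in limma (0.138% of all genes), edgeR (0.0689%) and DESeq2 (0.296%), with 0 members at an unadjusted p under 0.05 (10.1% of all genes). Between Scr16 and Scr13, 0 passed in limma (0.0348% of all genes), edgeR (0.0139%) and DESeq2 (0.0487%), with 2 members, PFKL and ENO2, at an unadjusted p under 0.05 (7.02% of all genes).

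Some markers of another cell type differed with the genotype. Of 7 fibroblast or mesenchymal genes tested in untreated libraries, 4 were higher in the libraries labelled KO (COL3A1, LUM, DCN and COL1A1) and 0 lower (2.3% and 2.54% of all genes). With doxorubicin the same 4 of 6 tested were higher (4.52% of all genes). DCN and LUM were under 1 normalized CPM in all Scr libraries, except LUM in 1 untreated library, and were tested because they are high in the libraries labelled KO, so their calls give no support to these counts. COL3A1, the most abundant, was 175 ± 38.4 normalized CPM (SD, n = 4) in untreated libraries labelled KO and 55.4 ± 57.4 in untreated Scr. That Scr mean rests largely on Scr13 replicate 1, at 139 normalized CPM against 10.8 to 41.1 in the other untreated Scr libraries. It exceeded KO11 replicate 2, at 126, so the untreated groups overlapped for COL3A1. Summed over the 7 listed genes found, the level ran from 317 to 443 normalized CPM in untreated libraries labelled KO and from 184 to 340.3 in untreated Scr, and with doxorubicin from 334 to 433 and from 172 to 225. PDGFRB and THY1, which did not pass between genotypes, hold much of the Scr sums, with means of 67.5 and 81.2 in treated Scr. Untreated, PDGFRB had means of 79.3 in libraries labelled KO and 75.2 in Scr, and THY1 of 107 and 104. COL1A2, a defining collagen, did not exceed 3.03 normalized CPM and was at 0 in at least 1 library. Of 11 adrenergic neuroblastoma markers tested in untreated libraries, 1 was higher (GATA3) and 3 were lower, among them NEFM and GAP43 (2.3% and 2.54% of all genes). With doxorubicin 0 were higher and 3 lower (4.52% and 4.17% of all genes), again with NEFM and GAP43 among them. DCN, PDGFRB, THY1 and GATA3 are named here after their values were seen. The summed level of the adrenergic list ran from 6543 to 7271 normalized CPM in untreated libraries labelled KO and from 6484 to 7257 in untreated Scr. Blood and endothelial lists did not exceed 1.74 normalized CPM in sum in any library, and the epithelial list did not exceed 10.8. The part of these genes in the differences of the members was not tested.

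With doxorubicin more members were higher than lower in both genotypes. In the Scr clones 15 were higher and 1 lower of 34, and in the KO clones 10 were higher and 4 lower. SLC16A3, among the 10, reached 1 normalized CPM in 1 of 4 untreated KO libraries and gives no support to that count, which is 9 without it. Scaled by library size alone, HIF1A, HK1, PFKFB4 and PGK1 no longer passed as higher in KO clones, while GPI, LDHA, LDHB and SLC16A1 still passed as lower. No call in the Scr clones was lost under that scaling. Without the filter on low values 8 members passed in Scr and 7 in KO clones, and with 1 library left out 13 to 16 in Scr and 7 to 12 in KO clones, the 7 without untreated KO11 replicate 2. Over all genes 1100 to 1739 passed in Scr and 2049 to 2903 in KO clones with 1 library left out. With all libraries 1021 were higher and 753 lower in Scr, and 1634 and 1212 in KO clones. Of all genes, 7.1% were higher and 5.24% lower in Scr (14378 tested), and 11.3% and 8.35% in KO clones (14513 tested). The median change was 0.28 over the members and -0.012 over all genes in Scr, and 0.11 and 0.015 in KO clones. Groups did not overlap for 19 members in Scr (17.1% of all genes) and 13 in KO clones (19.8%). SLC16A3 is 1 of the 13 and gives no support to that count either. The fits held the clone as a fixed term. With clone Scr13 left out, 1 member passed in the Scr clones, VEGFA (1.83% of all genes), and 9 with Scr16 left out (5.88%). In the KO clones 5 passed without KO11 (7.58% of all genes) and 7 without KO28 (16.0%), and VEGFA, P4HA2, PFKL and SLC16A1 passed either way. In bulk samples fewer cells of a type and less RNA per cell cannot be told apart.

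Shared by both genotypes were 8 higher genes, HK1, PFKL, PFKP, PGK1, ENO2, HIF1A, VEGFA and P4HA2, which are 53.3% of the 15 in Scr and 80.0% of the 10 in KO clones (SLC16A3 included), and 1 lower gene, SLC16A1. P4HA2 (ENSG00000072682, chr5:132191838-132295315, minus strand) rose most among them. Untreated it was 20.6 and 19.3 normalized CPM in KO11, 20.3 and 21.7 in KO28, 19.4 and 19.1 in Scr13 and 16.0 and 20.9 in Scr16, and with doxorubicin 34.3 and 44.0 normalized CPM in KO11, 35.97 and 46.9 in KO28, 33.5 and 33.8 in Scr13 and 30.5 and 30.1 in Scr16. Treated and untreated libraries did not overlap in either genotype, with changes of 0.74 ± 0.12 (SE, adjusted p = 0.00059) in Scr and 0.93 ± 0.12 (SE, adjusted p = 3.41e-06) in KO clones. VEGFA changed by 0.54 ± 0.071 (SE, adjusted p = 4.04e-05) in Scr and 0.58 ± 0.070 (SE, adjusted p = 8.68e-07) in KO clones, also without overlap. The rise of HIF1A was 0.32 ± 0.077 (SE, adjusted p = 0.00858) in Scr and 0.19 ± 0.069 (SE, adjusted p = 0.0486) in KO clones, and the KO call was lost when any of its 8 libraries except untreated KO28 replicate 1 was left out. The KO call of HIF1A was also lost with edgeR and with no term for the clone. EGLN1 and EGLN3 did not pass in either genotype, with changes of -0.13 in Scr and -0.11 in KO clones for EGLN1 and of 0.044 and 0.13 for EGLN3. EPAS1 did not pass in either, at -0.14 (adjusted p = 0.381) and 0.068 (adjusted p = 0.559). ADM, a vasodilator peptide, was at 0.15 (adjusted p = 0.634) and 0.43 (adjusted p = 0.111), P4HA1 at 0.27 (adjusted p = 0.276) and 0.100 (adjusted p = 0.557), and ANKRD37 at 0.35 (adjusted p = 0.386) and 0.38 (adjusted p = 0.177). The fall of SLC16A1 was -0.50 ± 0.078 (SE, adjusted p = 0.000311) and -0.47 ± 0.080 (SE, adjusted p = 9.44e-05).

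The phosphofructokinase genes, which encode the committed step, did not move together. PFKL, the liver type, rose by 0.37 ± 0.078 (SE, adjusted p = 0.00389) in Scr and 0.46 ± 0.075 (SE, adjusted p = 6e-05) in KO clones. PFKP, the platelet type, rose by 0.46 ± 0.082 (SE, adjusted p = 0.000876) and 0.33 ± 0.090 (SE, adjusted p = 0.01), the second lost without untreated KO28 replicate 1. PFKM, the muscle type, was at -0.0032 (adjusted p = 0.986) and -0.0057 (adjusted p = 0.974). ENO2, the neuronal enolase, rose by 0.37 ± 0.066 (SE, adjusted p = 0.000834) and 0.33 ± 0.069 (SE, adjusted p = 0.00106), while GAPDH was at 0.19 (adjusted p = 0.0645) and 0.056 (adjusted p = 0.711) and ENO1 at 0.16 (adjusted p = 0.114) and -0.0085 (adjusted p = 0.959). HK1 rose by 0.33 (adjusted p = 0.0036) in Scr and 0.24 (adjusted p = 0.022) in KO clones. The KO call of HK1 was lost when either untreated KO11 library, untreated KO28 replicate 1 or doxorubicin replicate 2 of either clone was left out. PGK1 rose by 0.26 (adjusted p = 0.0269) in Scr, lost without untreated replicate 2 or doxorubicin replicate 1 of either clone, and by 0.21 (adjusted p = 0.0457) in KO clones, lost without any library but replicate 1 of KO11 in either treatment. The KO call of PGK1 was also lost with edgeR and with no term for the clone.

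In the Scr clones 7 further members passed as higher, namely HK2, PFKFB3, ALDOA, ALDOC, TPI1, PDK1 and NDRG1. ALDOC changed by 0.64 ± 0.14 (SE, adjusted p = 0.0057), from the untreated to the treated values given above, which did not overlap. NDRG1, a stress and hypoxia target, was untreated at 38.7 and 35.3 normalized CPM in KO11, 55.3 and 49.7 in KO28, 35.7 and 37.3 in Scr13 and 33.9 and 42.3 in Scr16, and with doxorubicin 50.7 and 53.5 normalized CPM in KO11, 45.6 and 47.5 in KO28, 69.7 and 59.6 in Scr13 and 46.1 and 47.9 in Scr16. Its treated Scr libraries all exceeded the untreated ones, a change of 0.55 ± 0.12 (SE, adjusted p = 0.00378), while in KO clones the groups overlapped, at 0.16 (adjusted p = 0.371). PDK1 with doxorubicin was 73.1 and 72.5 normalized CPM in KO11, 90.2 and 74.1 in KO28, 104 and 72.8 in Scr13 and 79.4 and 78.0 in Scr16, a change of 0.52 ± 0.13 (SE, adjusted p = 0.0102) in Scr and 0.14 (adjusted p = 0.321) in KO clones. The Scr call of PDK1 was lost without Scr13 untreated replicate 2 or doxorubicin replicate 1. PFKFB3 changed by 0.42 (adjusted p = 0.00925), lost without Scr13 doxorubicin replicate 2, ALDOA by 0.30 (adjusted p = 0.00574) and TPI1 by 0.28 (adjusted p = 0.00981), lost without untreated Scr16 replicate 2. HK2 changed by 0.39 (adjusted p = 0.0346), a call lost without any library but untreated Scr13 replicate 1 or doxorubicin Scr13 replicate 2. The HK2 call was also lost with edgeR.

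In the KO clones 2 further members passed as higher, PFKFB4 and SLC16A3, and 3 as lower, GPI, LDHA and LDHB. SLC16A3 changed by 1.59 ± 0.29 (SE, adjusted p = 0.000223) from its few untreated reads, having passed the filter through the treated group, where it is high, and by 0.58 (adjusted p = 0.195) in Scr. PFKFB4 changed by 0.45 (adjusted p = 0.0354), a call lost without any library but untreated KO11 replicate 1 or untreated KO28 replicate 2. LDHA fell by 0.21 (adjusted p = 0.0433) on the log2 scale in KO clones, where treated and untreated libraries did not overlap, and was at 0.062 (adjusted p = 0.619) in Scr. The LDHA call was lost without any library but untreated KO28 replicate 2 or doxorubicin KO11 replicate 2, and also with no term for the clone. LDHB fell by 0.27 (adjusted p = 0.0139), lost without either untreated KO11 library or doxorubicin KO11 replicate 1. GPI fell by 0.22 (adjusted p = 0.0249), lost without either untreated KO11 library, untreated KO28 replicate 1 or doxorubicin replicate 2 of either clone.

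**Figure D2:**
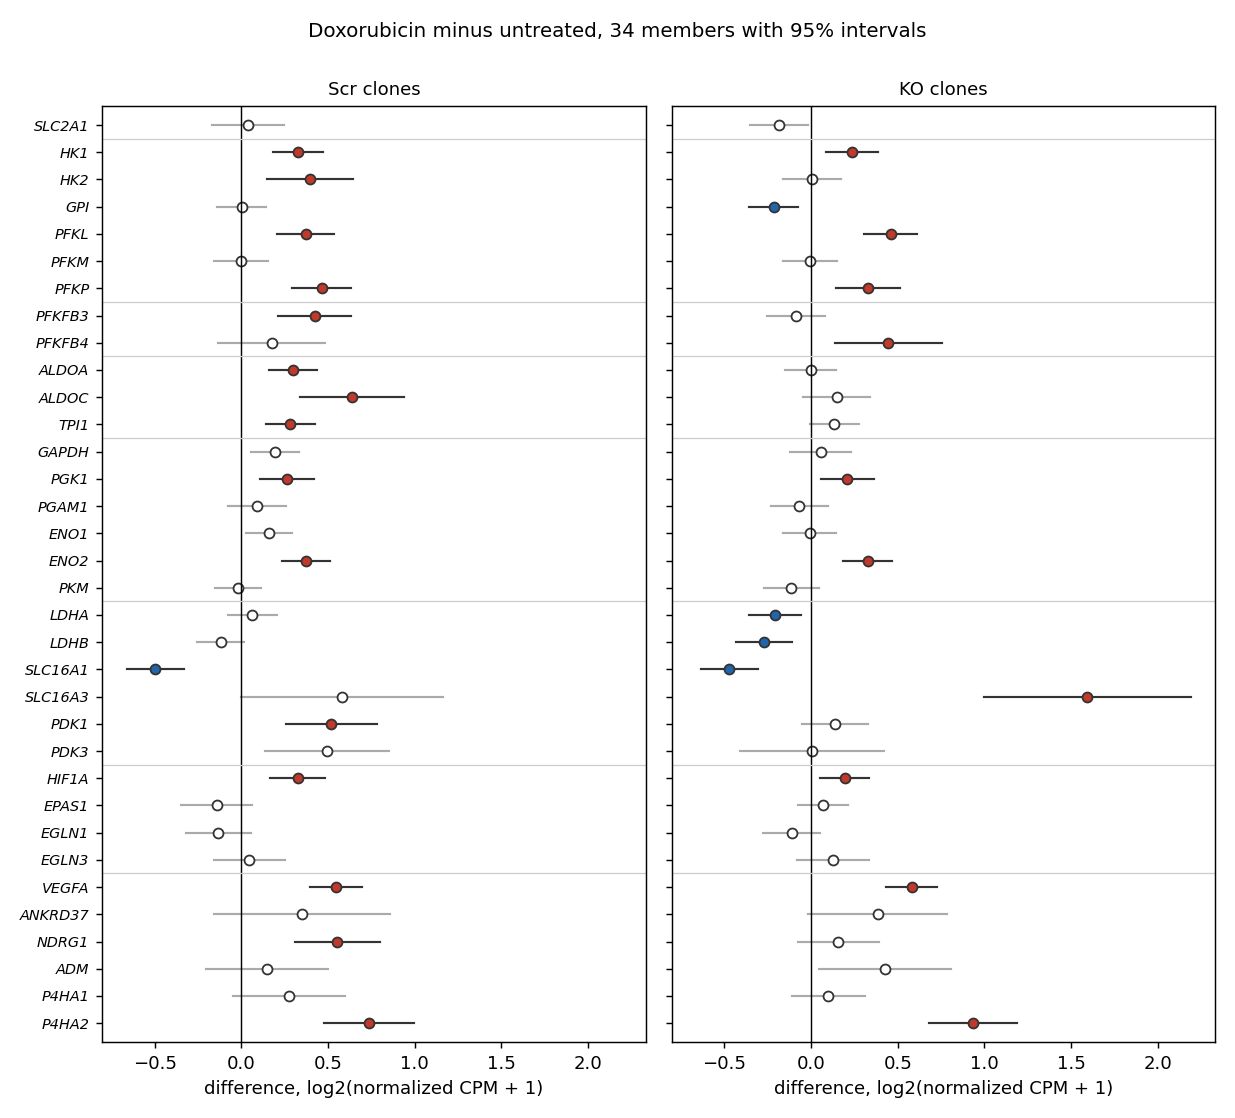
Change with doxorubicin for the 34 members tested, as log2(normalized CPM + 1), in Scr (left) and KO (right) clones, 4 treated against 4 untreated libraries, grouped by role. Points are limma estimates with 95% intervals, filled red (higher) or blue (lower) where the adjusted p is under 0.05: 15 red and 1 blue in Scr, 10 red and 4 blue in KO clones.

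Whether the response to doxorubicin changed with the genotype was tested as an interaction over the 16 libraries. In limma 0 members passed (0.0261% of all 15325 genes), with a smallest adjusted p of 0.142, and 9 of 34 had an unadjusted p under 0.05 (8.31% of all genes). With edgeR 0 members passed (0.0653% of all genes), and with DESeq2 2 did, PFKFB3 and ALDOA (0.378% of all genes). The 9 were PFKFB3, ALDOA, ALDOC, HK2, GPI, LDHA, PDK1 and NDRG1, with a smaller or more negative response in the KO clones, and SLC16A3, with a larger one, whose few untreated KO reads give no support to the count of 9. PFKFB3 had an interaction of -0.51 ± 0.13 (SE, adjusted p = 0.142), ALDOA of -0.30 ± 0.096 (SE, adjusted p = 0.331) and ALDOC of -0.49 ± 0.17 (SE, adjusted p = 0.436). Genes called in 1 genotype and not in the other were thus not shown by limma to respond differently. The difference between genotypes without treatment and the response of the Scr clones share the 4 untreated Scr libraries, so their values were not independent. Each is given on its own: PFKFB3, ALDOA and ALDOC had 0.87, 0.32 and 0.54 between untreated genotypes, 0.42, 0.30 and 0.64 with doxorubicin in Scr, and -0.087, -0.0027 and 0.15 with doxorubicin in KO clones.

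**Figure D3:**
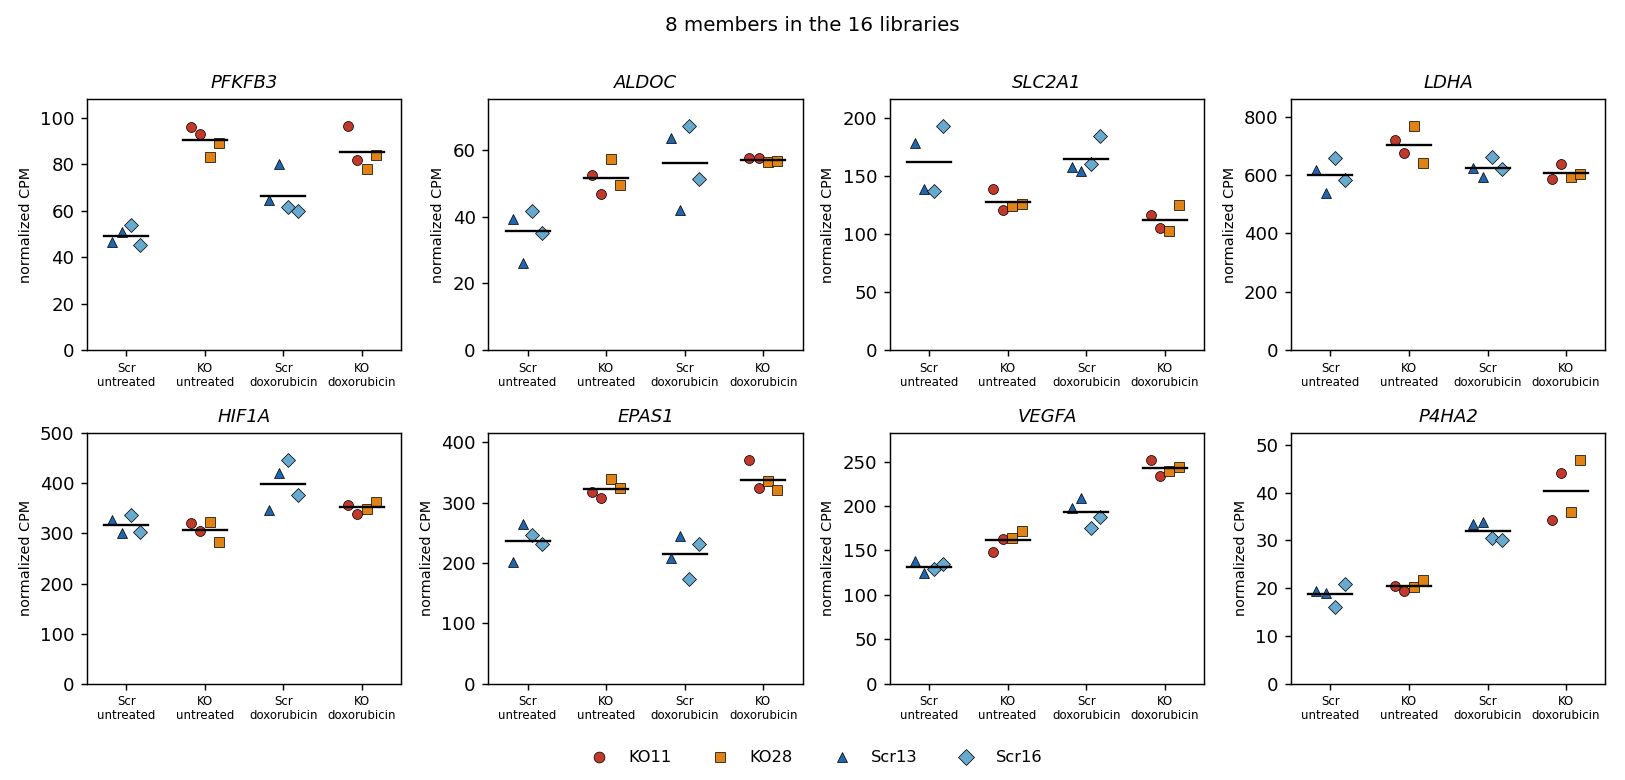
Normalized CPM of 8 members in each of the 16 libraries (linear axes from 0), by group, with a marker for each clone and a bar at the mean of 4 libraries. PFKFB3 and ALDOC were lowest in untreated Scr, EPAS1 and VEGFA were higher in the libraries labelled KO in both treatments, SLC2A1 was lower in them after doxorubicin, and HIF1A, VEGFA and P4HA2 were higher after doxorubicin.

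Summed over the 36 members, untreated Scr libraries stood below the other 3 groups. The sum was 9428 ± 339 normalized CPM (SD, n = 4) in untreated Scr, 10558 ± 341 in untreated libraries labelled KO, 10582 ± 58.4 in Scr with doxorubicin and 10749 ± 417 in KO clones with doxorubicin. The highest untreated Scr library (9745) was below the lowest of the other groups (10171). GAPDH, ENO1 and PKM make up the largest part of this sum, and it is a description with no test.

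**Figure D4:**
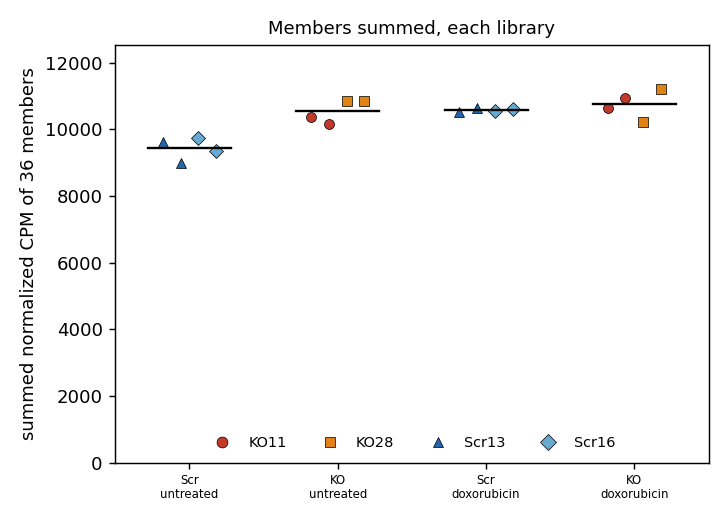
Sum of the normalized CPM of the 36 members in each of the 16 libraries, by group, with a marker for each clone and a bar at the mean of 4 libraries. The 4 untreated Scr libraries lie between 8984 and 9745 and the other 12 between 10171 and 11199.

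Of 41 other genes of the hypoxia response listed and 40 found, 14 of 31 tested were higher with doxorubicin and 0 lower in Scr (7.1% and 5.24% of all genes), and 13 of 32 were higher and 0 lower in KO clones (11.3% and 8.35%). The others did not pass. The largest in Scr were BHLHE40, a clock and hypoxia repressor, at 1.19 ± 0.34 (adjusted p = 0.0284), DDIT4, an inhibitor of mTOR signaling, at 1.00 ± 0.18 (adjusted p = 0.00077), and STC2 at 0.84 ± 0.25 (adjusted p = 0.0345). In KO clones the higher genes included ANGPTL4, an inhibitor of lipoprotein lipase, at 1.69 ± 0.19 (adjusted p = 1.53e-07), and BHLHE40 at 1.43 ± 0.27 (adjusted p = 0.000297). The lowest untreated library of BHLHE40 was 0.288 normalized CPM in Scr and 0.723 in KO clones, and 2 of 4 untreated libraries in each genotype reached 1. It passed the filter through the treated group, where it is high, so its calls give no support to the counts, which are 13 and 12 without it. DDIT4 is also a p53 target. Between genotypes 2 of 31 were higher untreated, IGFBP3, a carrier of insulin-like growth factors, at 2.83 ± 0.31 (adjusted p = 5.63e-06) and DDIT4 at 0.61 ± 0.16 (adjusted p = 0.0256). With doxorubicin 4 of 32 were higher, of which 3 reached 1 normalized CPM in all treated Scr libraries, so that the other gives no support to the count. Among the 4 were IGFBP3 at 3.84 ± 0.30 (adjusted p = 2.29e-08) and ANGPTL4 at 1.08 ± 0.26 (adjusted p = 0.01). Another 3 were lower (TXNIP, ZNF395 and MXI1, named after their values were seen). IGFBP3 was untreated at 105 and 85.5 normalized CPM in KO11, 125 and 71.7 in KO28, 27.5 and 4.43 in Scr13 and 10.4 and 17.4 in Scr16, so that all libraries labelled KO lay above all Scr libraries.

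Of 15 HIF subunits and regulators beyond the members, 1 was higher with doxorubicin in each genotype (7.1% of all genes in Scr and 11.3% in KO clones). It was HIF3A, a further HIF alpha gene, at 1.26 ± 0.19 (adjusted p = 0.000199) in Scr and 1.26 ± 0.18 (adjusted p = 1.02e-05) in KO clones. In KO clones 3 were lower (8.35% of all genes), ELOB at -0.35 ± 0.093 (adjusted p = 0.00925), ARNT2 at -0.23 ± 0.074 (adjusted p = 0.0265) and, named after its value was seen, VHL, the part of the ligase that recognizes HIF alpha, at -0.23 ± 0.077 (adjusted p = 0.0326). Between genotypes 0 of 14 passed in either treatment by limma.

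Few further glycolysis genes passed. Of 17 tested, 1 was lower in untreated libraries labelled KO (2.54% of all genes), and with doxorubicin 1 was lower and 1 higher (4.17% and 4.52%). The lower gene in both was GPD2, the mitochondrial enzyme of the glycerol phosphate shuttle, at -1.53 ± 0.18 (adjusted p = 9.41e-06) and -1.29 ± 0.16 (adjusted p = 9.54e-06). GPD2 was untreated at 14.2 and 14.6 normalized CPM in KO11, 7.18 and 10.3 in KO28, 35.2 and 36.04 in Scr13 and 29.2 and 36.4 in Scr16, with no overlap between genotypes. The higher one was TIGAR, a known p53 target that breaks down the product of PFKFB3, at 0.75 ± 0.13 (adjusted p = 0.000388). TIGAR was also the 1 gene of 17 that passed with doxorubicin in each genotype, at 1.08 ± 0.20 (adjusted p = 0.00123) in Scr and 1.48 ± 0.15 (adjusted p = 7.19e-08) in KO clones. Over all genes 7.1% were higher in Scr and 11.3% in KO clones. Of 8 further glucose and lactate transporters tested, EMB, a partner of lactate carriers, passed with doxorubicin in KO clones at 0.39 ± 0.11 (adjusted p = 0.0108) and between treated genotypes at 0.35 ± 0.10 (adjusted p = 0.0341). In these comparisons 11.3% and 4.52% of all genes were higher. Of 13 genes for the entry of pyruvate into mitochondria, 2 were lower with doxorubicin in Scr and 2 in KO clones (5.24% and 8.35% of all genes). In Scr they were PC at -0.47 ± 0.14 (adjusted p = 0.0392) and PDHB at -0.38 ± 0.11 (adjusted p = 0.0252). In KO clones they were PC at -0.72 ± 0.11 (adjusted p = 2.89e-05) and MPC1 at -0.60 ± 0.18 (adjusted p = 0.0162). PC encodes pyruvate carboxylase, PDHB a subunit of pyruvate dehydrogenase and MPC1 a subunit of the mitochondrial pyruvate carrier. As values beside these, of 12 proliferation genes 9 were lower with doxorubicin in KO clones and 2 in Scr (8.35% and 5.24% of all genes). Between genotypes 1 was lower in untreated libraries labelled KO (2.54% of all genes), MCM2 at -0.75 ± 0.071 (adjusted p = 7.18e-07), and 8 in treated ones (4.17%). In the interaction 1 passed (0.0261% of all genes), PLK1 at -0.73 ± 0.13 (adjusted p = 0.0294). The part of the proliferation genes in the changes of the members was not tested.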

How the data were processed

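RNA from 16 libraries was sequenced by the authors, and per the labels the processing used bcl2fastq, HISAT2 2.1.0, HTSeq and edgeR with GRCh38; filters and strand use are not given in the sources used here. The deposited library values are a signal, counts that the authors scaled to normalized CPM. They were whole multiples of a step per library for 100% of values (tolerance 0.01), so reads were recovered for alternatives. TMM factors over all 16 libraries differed less from the deposited scaling (SD 0.00676, log2) than factors per table (0.0159), so the values of both tables were set on 1 scale. The authors' fold changes, p-values, q-values and ranking columns were not used. Of the value columns, 0 were left over.

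Names came from the reference tables (95.1% of identifiers) and positions from GENCODE 29 (95.9%). Groups were compared with limma 3.58.1 (R 4.3.3) on log2(normalized CPM + 1), keeping genes that reached 1 normalized CPM in 4 or more compared libraries, empirical Bayes with a trend, Benjamini-Hochberg adjustment over all genes and a threshold of 0.05. Genotypes were compared without a covariate, doxorubicin and the interaction with the clone as a fixed term, and clones with the treatment as one. Single members were also compared by a two-sided exact permutation test (SciPy 1.17.1). A floor of 3 reads is 0.118 to 0.285 normalized CPM and covers counting error only. Alternatives used edgeR 4.0.16, DESeq2 1.42.0, other pseudocounts, filters and scalings, and left out libraries or clones. The scripts were tested on simulated data. Members, gene lists and tests were chosen with earlier results of these data known. Values in every library are given for members with an adjusted p under 0.05 and a log2 difference of at least 0.5 in any of the 4 comparisons, and for HIF1A, EPAS1, SLC2A1, LDHA, PGK1, CA9 and VEGFA. From each other list the rule names at most 3 called genes per comparison, those with the largest difference, and further names are marked as chosen after their values were seen. Some genes of these lists are counted but not reported here by name.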

Additional observations from a re-analysis of the deposited data

Results flagged for a closer look

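In 6 of 136 groups of 4 libraries, 1 per member and group, the highest or lowest library lay farther from the others than Dixon's 95% critical value for 4 samples allows, where chance gives about 1 in 20. HK1 was 145 normalized CPM in untreated KO28 replicate 1, against 171 to 173 in the other untreated libraries labelled KO. PFKP was 135 in KO11 with doxorubicin replicate 1, against 158 to 161 in the others. TPI1 was 499 in KO28 with doxorubicin replicate 1, against 541 to 548. LDHB was 495 in untreated Scr16 replicate 1, against 425 to 433. PDK1 was 90.2 in KO28 with doxorubicin replicate 1, against 72.5 to 74.1, and 61.5 in untreated KO28 replicate 2, against 72.7 to 73.2.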

How the results depend on the processing

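Of 1209 alternative values for 55 gene results, 970 kept direction and side of the threshold, 218 lost the call, 9 gained one and 12 changed sign. Between untreated genotypes 7 members passed, 4 without a filter on low values, 3, 2 and 3 without clone KO28, Scr13 or Scr16, 4 at an adjusted p under 0.01 and 2 with at least 1.5-fold as well. Leaving out 1 library gave 4 to 8, the 4 without untreated KO28 replicate 1. Between treated genotypes 6 passed, 2, 3 and 4 without clone KO11, KO28 or Scr16 (HK2, PFKFB3 and VEGFA lost and NDRG1 gained without Scr16), 3 under 0.01, 1 at 1.5-fold, and 3 to 6 with 1 library left out, the 3 without KO11 doxorubicin replicate 1. For doxorubicin in Scr clones 16 passed, 8 without a filter, 1 and 9 without clone Scr13 or Scr16, 2 at 1.5-fold, and 13 to 16 with 1 library left out. In KO clones 14 passed, 7 without a filter, 5 and 7 without clone KO11 or KO28, 7 under 0.01, 2 at 1.5-fold, and 7 to 12 with 1 library left out. The 7 came without untreated KO11 replicate 2, 8 without untreated KO28 replicate 1, and 9 without untreated KO11 replicate 1 or doxorubicin replicate 2 of either clone. Scaled by library size alone, the response of KO clones lost the higher calls of HIF1A, HK1, PFKFB4 and PGK1 and kept the lower calls. The interaction gave 0, and 2 with DESeq2. Without a filter, under 0.01, at 1.5-fold, with reads summed per clone or with the replicate block, counts over all genes are not given here. Member losses there cannot be told from a general loss of calls. Leaving out a clone also leaves fewer libraries; the cause of the other changes was not tested.

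The values that changed sign belonged to members that did not pass. PGK1 between untreated genotypes was -0.00396 with library size alone, -0.090 without clone KO11, -0.045 without clone Scr13, -0.017 with reads summed per clone, and -0.059 to 0.055 with 1 library left out. SLC2A1 with doxorubicin in Scr was -0.010 without clone Scr16 and -0.071 to 0.13 with 1 library left out. EPAS1 with doxorubicin in KO clones was -0.012 without clone KO11. With the replicate number as a block, 8 and 6 members passed between untreated and treated genotypes, 17 and 14 with doxorubicin in Scr and KO clones, and 0 in the interaction and between clones of either genotype; deviations of same-numbered libraries correlated from -0.10 to 0.12, so the numbers were not taken as pairs. The member gained between untreated genotypes under the block was LDHA. Depth limits SLC2A3, CA9 and SLC16A3, the last with at most 123 reads in a library.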

Other observations

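Neighboring sugar pathways moved in few genes. Of 8 pentose phosphate genes tested, TKT, the transketolase, was higher in the libraries labelled KO untreated at 0.27 ± 0.068 (adjusted p = 0.0203) and with doxorubicin at 0.25 ± 0.072 (adjusted p = 0.0343) by limma, and H6PD and PGLS were higher with doxorubicin in Scr at 0.27 ± 0.085 (adjusted p = 0.0429) and 0.36 ± 0.11 (adjusted p = 0.0414). Of 13 glycogen genes tested, PYGL, the liver glycogen phosphorylase, and GBE1, the branching enzyme, were higher in treated libraries labelled KO than in treated Scr at 1.00 ± 0.28 (adjusted p = 0.0251) and 0.59 ± 0.18 (adjusted p = 0.0468). PYGL reached 1 normalized CPM in 2 of 4 treated Scr libraries and passed the filter through the libraries labelled KO, where it is high, so its call gives no support to the count. GBE1 rose with doxorubicin in KO clones at 0.92 ± 0.16 (adjusted p = 0.000107), and GYG2 in Scr at 0.80 ± 0.26 (adjusted p = 0.0474). Over all genes 2.3% and 4.52% were higher between untreated and treated genotypes, and 7.1% and 11.3% with doxorubicin in Scr and KO clones.

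The make-up of isozymes, as shares per kilobase of exon, moved in some enzymes. PFKM made up 31.3% to 32.7% of phosphofructokinase in untreated Scr libraries and 23.8% to 27.8% in treated ones, and 29.9% to 35.2% in untreated and 25.7% to 30.0% in treated libraries labelled KO. ENO2 made up 20.5% to 22.2% of enolase in untreated and 24.8% to 26.2% in treated libraries labelled KO, without overlap, while the ranges overlapped in Scr, at 21.0% to 24.2% and 23.1% to 27.6%. LDHA made up 37.5% to 40.7% of lactate dehydrogenase in untreated Scr and 41.7% to 43.6% in treated Scr, also without overlap, while they overlapped in libraries labelled KO, at 41.2% to 45.2% untreated and 40.5% to 46.0% treated. These shares follow from the levels of the same genes and were not tested.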
